A study of Mus musculus with 12 samples.

Results

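The genes described here are 41 cell cycle and proliferation genes of mouse retina, taken by symbol from a list that was drawn up for them, out of 54367 genes in the expression tables. All 41 symbols were found, each in 1 row. By role they are 5 genes for D-type cyclins and their kinases, 3 genes for cyclin E and Cdk2, 3 inhibitors of the Cip/Kip family, 10 genes of DNA replication and nucleotide supply, and 20 genes of G2 and mitosis. The animals were wildtype C57BL/6 mice aged 8 to 12 weeks. In every mouse the retina of the right eye (OD) was burned with a 532 nm laser, at a spot size of 75 µm and a duration of 0.1 s, at 4 clock positions. The left eye (OS) of the mouse had no laser and was the control, so a control retina came from an animal whose other eye was injured. Retinas were taken 3 or 7 days after the laser, and there were 3 laser libraries and 3 control libraries on each day, 12 in all. The labels call the libraries separate samples without saying how many mice went into each, so the p-values rest on how far these libraries spread, which may be technical in part.

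Cells enter division when D-type cyclins with Cdk4 or Cdk6, and then cyclin E with Cdk2, release E2F factors from the retinoblastoma protein. DNA is then copied by the MCM helicase with PCNA, on nucleotides made by ribonucleotide reductase, and mitosis is driven by Cdk1 with the B-type cyclins. The Cip/Kip proteins p21, p27 and p57 hold these kinases back. Neurons of the adult mouse retina do not divide, and dividing cells after injury can include microglia, infiltrating leukocytes, endothelial cells and, to a small extent, glia.

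On day 3 most of the 20 listed genes of G2 and mitosis had higher values in lasered retinas than in control retinas, at low levels in both. On day 7 the values of most overlapped. Over all 41 genes, with no filter on level, the laser values lay above all control values for 24 genes on day 3, or 58.5%, against 17.4% of all genes above 0 in at least 1 library. On day 7 this held for 3 of the 38 genes above 0, or 7.89%, against 5.59% of all such genes. No member lay below all control values on day 3, against 2.94% of all such genes, or on day 7, against 2.02%. By role, the day 3 count was 14 of 20 genes of G2 and mitosis, 5 of 10 replication genes, 3 of 5 genes for D-type cyclins and their kinases, 1 of 3 genes for cyclin E and Cdk2, and 1 of 3 inhibitors. At least 10 reads on day 3 stood behind 40 of the 41 members, but behind 22754 of the 34387 genes above 0. The day 3 shares of members and of all genes thus cover genes of unlike level.

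No single member passed the test across all genes on either day. The test was limma on log2(value + 1), where the value is the deposited signal per gene length, on genes whose mean over the 6 libraries of the day was 1 or more, with Benjamini-Hochberg adjustment over all genes tested and a threshold of 0.05. On day 3 it called 24 genes higher, which is 0.143% of 16786, and 1 gene lower, which is 0.00596%, with 0 of the 26 members tested among them. The total of 25 genes was 294 without laser replicate 1, 1 without laser replicate 3 and 0 without any 1 control library. At an unadjusted p under 0.05, 9 of these 26 members were higher, against 20.7% of all genes tested, and 0 were lower, against 2.29%. The 9 were Ccnd1, Ccnd3, Cdk4, Cdkn1a, Mcm3, Mcm6, Rrm2, Ccnb2 and Bub1b. The other 15 members were below the mean of 1, most of them mitotic genes. Of the 26 tested, 8 passed the filter only through the laser libraries, so counts and medians over the tested members describe them and are read no further. Their median difference was 0.39 on the log2(value + 1) scale, beside 0.16 for all genes tested, and with median-of-ratios rescaling it was 0.24 beside -0.03.

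**Figure D1:**
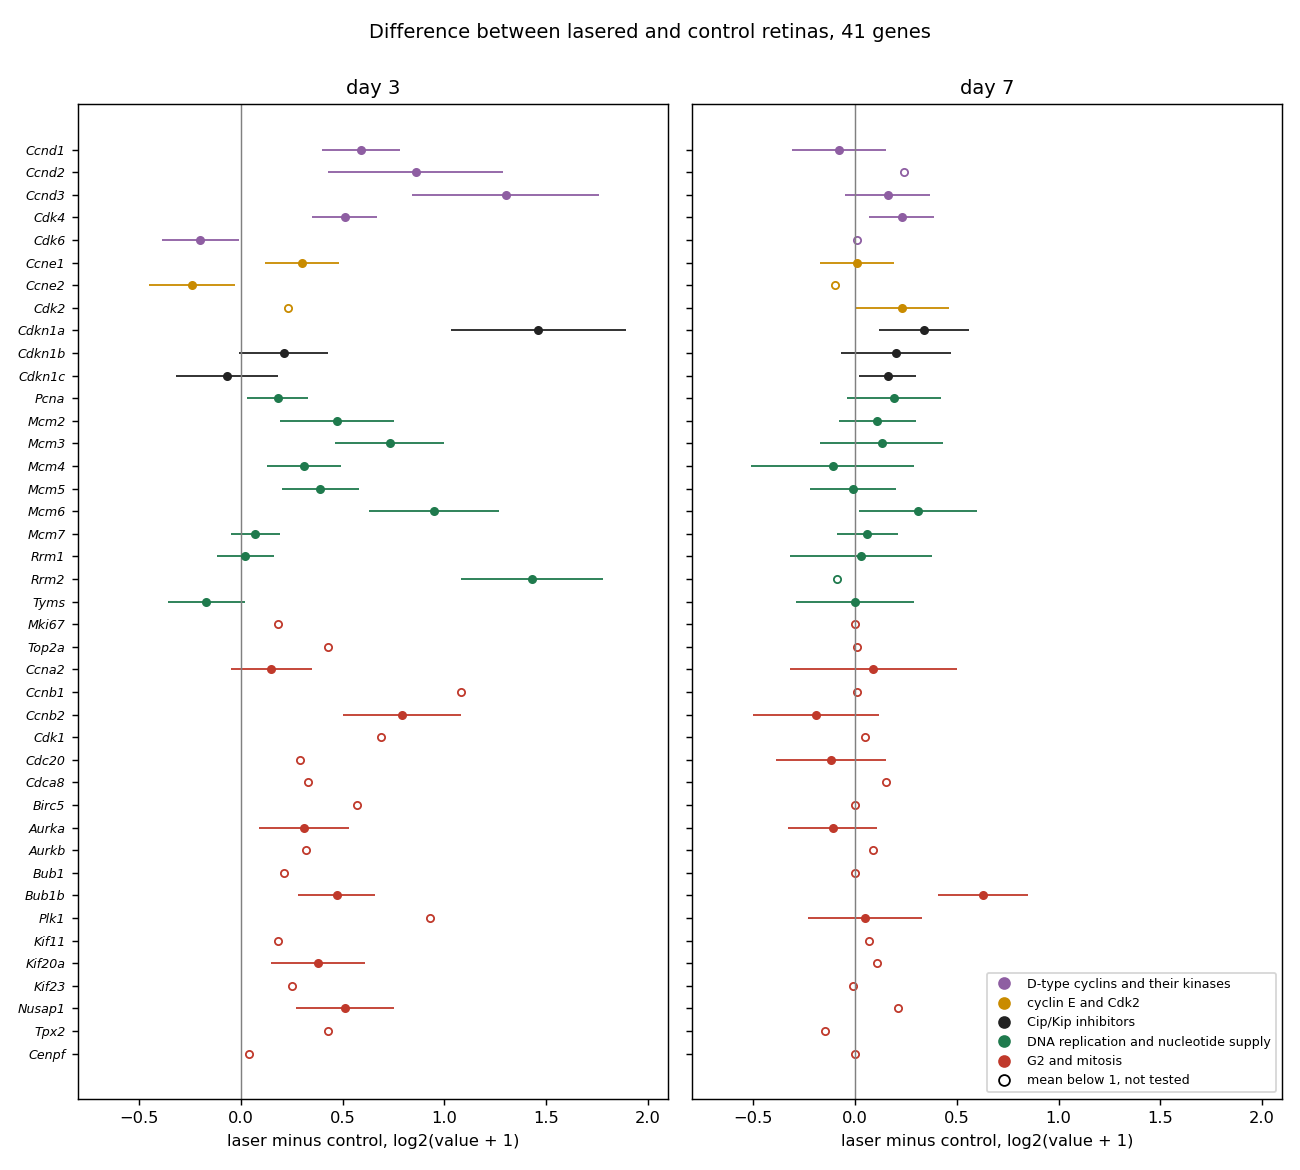
Difference between lasered and control retinas for the 41 genes on day 3 (left) and day 7 (right), in log2(value + 1), coloured by role. Filled points are genes tested, with bars of 1 standard error of the limma fit, and open points are genes with a mean below 1, which had no test in that fit. On day 3 the points lie mostly right of 0, up to 1.46 for Cdkn1a, and on day 7 they lie around 0 with Bub1b highest at 0.63.

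Because most mitotic genes were near the limit of detection, the reads behind their values were recovered from the steps of the table. Day 3 libraries held 8738241 to 11879998 recovered reads and day 7 libraries 22683098 to 29487383. For an exon length of 1 kb, 3 reads stood for 0.445 to 0.605 in the libraries of day 3, and for 0.292 to 0.380 in those of day 7. Intervals and limits from these reads cover counting error only. Kif20a, a mitotic kinesin, has no recovered reads, since its coordinates in the tables differ from those of the annotation. In bulk retina, fewer cells of a type and less RNA per cell cannot be told apart.

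Some libraries stood apart, and all day 3 results rest partly on them. Laser replicate 1 of day 3 had the highest sums of neutrophil markers, with 1109 in that library, 3.43 and 60.5 in the other laser libraries, and 2.64 to 4.40 in the control libraries. It also held the lowest rod marker sum, 10510, against 25754 and 19262 in the other laser libraries and 22258 to 28045 in the controls. Lens markers summed to 424 in laser replicate 2 of day 3 and to 1186 in laser replicate 1 of day 7, and to at most 8.28 in the other 10 libraries. Rod markers were far above all other cell type lists in every library, as the retina label calls for. Laser replicate 1 was the highest of the 6 day 3 libraries for 31 of the 41 members and for 17 of the 20 genes of G2 and mitosis. Values without it are therefore given beside the main day 3 results.

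Mki67 encodes the Ki-67 protein, which coats chromosomes in dividing cells and is absent from resting ones. On day 3 it had 18, 4 and 1 recovered reads in laser replicates 1, 2 and 3, against 0 in all 3 control libraries, or values of 0.359, 0.0597 and 0.0191 against 0. Every laser library held at least 1 read and no control library held any, and most of the reads came from replicate 1. Set against 3 reads over the control group, the 23 laser reads stood for at least 8.23-fold more relative to total reads, and the 5 left without laser replicate 1 for at least 2.52-fold more. With the counting error of the laser reads included, the exact 95% lower limit of the ratio was 6.17, and 1.38 without laser replicate 1. On day 7 Mki67 had 0 reads in all 6 libraries, and at most 3 reads per group are allowed by a count of 0. The day 7 libraries held more reads than those of day 3, yet fewer genes were above 0 in at least 1 library, 27674 against 34387. A count of 0 on day 7 therefore cannot be set against day 3 by depth alone.

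Top2a, the topoisomerase that untangles chromosomes before they separate, had 33, 18 and 6 reads in the day 3 laser libraries, against 3, 0 and 0 in the controls. The values were 0.736, 0.300 and 0.128 in laser libraries and 0.0509, 0 and 0 in control libraries, and the groups did not overlap. The ratio relative to total reads was 20.4, with a 95% exact interval of 6.64 to 102, and 12.1 (3.67 to 62.7) without laser replicate 1. On day 7 Top2a had 0, 2 and 0 reads in laser libraries and 0 in each control library.

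Cdk1, the kinase that starts mitosis, had values of 1.63, 0.517 and 0.522 in the day 3 laser libraries, against 0.125, 0.157 and 0.121 in the controls. The lowest laser library lay above the highest control library, and replicates 2 and 3 agreed closely. The 72 laser reads and 12 control reads gave a ratio relative to total reads of 6.44 (3.47 to 13), and 4.03 (2.02 to 8.59) without laser replicate 1. On day 7 Cdk1 had values of 0.180, 0.280 and 0.117 in laser libraries and 0.217, 0.143 and 0.104 in control libraries, and the groups overlapped.

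Ccnb1 encodes cyclin B1, the partner of Cdk1. Its day 3 values were 2.30, 1.02 and 0.670 in laser libraries, against 0, 0.0358 and 0.147 in controls, from 93 and 4 reads. The groups lay far apart, and the ratio relative to total reads was 25.0 (9.43 to 93.5), or 17.0 (6.20 to 65.1) without laser replicate 1. On day 7 the values were 0.0253, 0.0565 and 0.184 in laser libraries and 0.0268, 0.162 and 0.0592 in control libraries, from 11 and 10 reads. The day 7 groups overlapped.

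Aurkb, the Aurora B kinase of the chromosomal passenger complex, was among the 3 members whose laser values lay above all control values on both days. On day 3 it had 6, 4 and 5 reads in laser libraries and 0, 1 and 1 in control libraries, a ratio relative to total reads of 8.05 (1.87 to 72.6), or 6.80 (1.41 to 64.7) without laser replicate 1. On day 7 it had 1, 2 and 2 reads in laser libraries and 0 in each control library, so the day 7 separation rests on 5 reads.

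The other genes of G2 and mitosis had higher group means in laser than in control libraries on day 3, some of them through laser replicate 1 alone. The laser values of Birc5 (survivin), Cdca8 (borealin), Plk1 (Polo-like kinase), Bub1 (a checkpoint kinase), Kif23 and Kif20a (kinesins of cell separation), Nusap1 (a spindle protein) and Ccnb2 (cyclin B2) lay above all control values. Ccna2 (cyclin A), Aurka (Aurora A), Cdc20 (an activator of the anaphase-promoting complex), Kif11 (a spindle kinesin), Tpx2 (an activator of Aurora A) and Cenpf (a centromere protein) overlapped between the groups. Group means of these 14 genes ran from 0.0471 (Cenpf) to 2.82 (Ccna2) in laser libraries and from 0.0210 (Cenpf) to 2.46 (Ccna2) in control libraries. Ccnb2 had the smallest p of them in the limma test, with a difference of 0.79 (SE 0.29) and an adjusted p of 0.165. Without Bub1b, the 19 genes summed to 29.3, 15.2 and 16.6 in day 3 laser libraries and to 9.67, 8.77 and 10.2 in control libraries, so every laser library lay above every control library.

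Without laser replicate 1 the ratio of reads relative to total reads was smaller for several of these genes. That of Cdc20 was 0.378 (0.00767 to 3.82), from 1 laser read against 4 control reads, where it was 3.49 (1.08 to 14.7) with all libraries. Kif11 was at 1.01 (0.50 to 1.98) without the library and at 1.88 (1.11 to 3.24) with it, so for both genes the higher laser mean rested on that library. Birc5 was at 2.32 (1.16 to 4.78) without it and at 3.65 with it, Kif23 at 2.57 (1.11 to 6.28) and 3.97, and Plk1 at 3.60 (1.83 to 7.50) and 4.95. Cdca8 was at 2.11 (1.32 to 3.40) without it and at 2.08 with it.

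**Figure D2:**
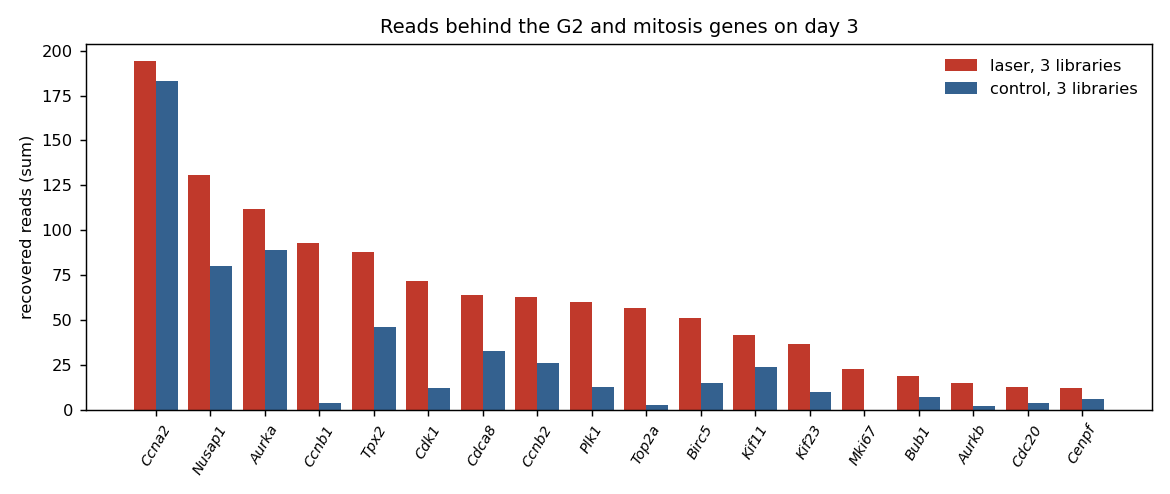
Recovered reads on day 3 for the 18 genes of G2 and mitosis other than Bub1b and Kif20a, summed over the 3 laser libraries (left bars) and the 3 control libraries (right bars). Ccna2 and Aurka had many reads in both groups, with 194 against 183 and 112 against 89, while Ccnb1, Cdk1, Top2a and Mki67 had 93 against 4, 72 against 12, 57 against 3 and 23 against 0.

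A count model on the recovered reads could include nearly all members. With voom of limma on the 22754 genes with at least 10 reads, an alternative chosen after seeing the data, 18 genes passed the adjusted threshold on day 3, all higher and 0.0791% of those tested, with 0 of 40 members among them. At an unadjusted p under 0.05, 21 of 40 members were higher, against 18.6% of all genes, and 13 of these were genes of G2 and mitosis. Of the 40, 8 had fewer than 10 reads over the 3 control libraries (Rrm2, Mki67, Top2a, Ccnb1, Cdc20, Aurkb, Bub1 and Cenpf), so they entered mainly through the laser libraries and the count is read no further. The members nearest the threshold were Ccnb1, with an adjusted p of 0.0681, Rrm2 with 0.0752, Cdk1 with 0.0887 and Cdkn1a with 0.0939. Without laser replicate 1, also chosen after seeing the data, 1183 genes were higher at an adjusted p under 0.05, or 5.40% of 21903, and 5 of 38 members were among them. These were Ccnb1 (adjusted p 0.00481), Rrm2 (0.00757), Cdkn1a (0.0161), Top2a (0.0316) and Cdk1 (0.0340), and their log2 differences ran from 1.89 for Cdk1 to 4.12 for Ccnb1. Ccnb1, Rrm2 and Top2a had 4, 7 and 3 reads over the control libraries. They too entered mainly through the laser libraries, so the count of 5 is read no further. In the test on log2(value + 1) without that library, 279 genes were higher, or 1.70%, with 0 of 24 members among them. The members higher at an unadjusted p under 0.05 were then 5 of 24, against 16.3% of all genes.

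The start regions of these genes are shown because most mitotic members had higher values in the same libraries, and because many genes of this phase carry a cell cycle homology region (CHR, searched as TTTGAA and TTCGAA) with CCAAT boxes. RefSeq promoter windows on GRCm38.p6, 250 bases before the annotated start, were found for 32 of the 41 members, in 35 windows. Capitals mark matches to CHR, CCAAT or an E2F motif (GCGGGAA) on either strand, and motifs were counted even where they share bases. The windows of 4 mitotic genes and of Rrm2 read, 5′ to 3′ on the strand of the gene:
Mki67, chr7:135716380-135716629, minus strand: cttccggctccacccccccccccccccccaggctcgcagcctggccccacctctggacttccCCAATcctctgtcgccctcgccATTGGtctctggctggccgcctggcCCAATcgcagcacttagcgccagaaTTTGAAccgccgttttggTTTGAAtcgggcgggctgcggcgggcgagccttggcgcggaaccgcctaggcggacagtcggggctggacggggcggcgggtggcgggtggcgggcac
Top2a, chr11:99024190-99024439, minus strand: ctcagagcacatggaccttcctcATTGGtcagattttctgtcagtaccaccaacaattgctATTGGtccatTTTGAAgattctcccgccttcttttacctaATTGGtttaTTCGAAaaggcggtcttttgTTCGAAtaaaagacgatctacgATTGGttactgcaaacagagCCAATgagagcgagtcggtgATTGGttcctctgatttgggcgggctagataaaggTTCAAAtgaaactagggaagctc
Cdk1, chr10:69352913-69353162, minus strand: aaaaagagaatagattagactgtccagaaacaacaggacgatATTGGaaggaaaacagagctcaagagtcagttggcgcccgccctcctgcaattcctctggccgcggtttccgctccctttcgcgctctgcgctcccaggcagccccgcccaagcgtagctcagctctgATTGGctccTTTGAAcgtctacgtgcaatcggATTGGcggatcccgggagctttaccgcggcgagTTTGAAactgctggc
Ccnb1, chr13:100786487-100786736, minus strand: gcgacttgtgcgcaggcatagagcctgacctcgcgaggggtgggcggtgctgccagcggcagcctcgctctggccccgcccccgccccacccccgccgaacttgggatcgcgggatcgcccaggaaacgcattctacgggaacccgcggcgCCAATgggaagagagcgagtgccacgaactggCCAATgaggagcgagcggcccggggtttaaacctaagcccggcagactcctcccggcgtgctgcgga
Rrm2, chr12:24708004-24708253, plus strand: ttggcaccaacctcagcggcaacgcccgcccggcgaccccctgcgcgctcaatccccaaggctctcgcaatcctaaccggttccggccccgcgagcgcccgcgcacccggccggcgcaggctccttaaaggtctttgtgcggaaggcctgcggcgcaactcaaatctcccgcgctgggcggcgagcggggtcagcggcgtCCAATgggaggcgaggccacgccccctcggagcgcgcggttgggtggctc

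The Mki67 window held 2 CHR and 3 CCAAT matches, that of Top2a 4 and 6, that of Cdk1 2 and 3, that of Ccnb1 0 and 2, and that of Rrm2 0 and 1. Of the 16 windows for genes of G2 and mitosis, 14 held CCAAT, or 87.5%, against 33.8% of all 32851 promoter windows of the same length. A CHR match stood in 7 of the 16, or 43.8%, against 17.1% of all windows, and the E2F motif stood in 0 of 16. Of the 10 windows for replication genes, which cover 9 genes, 9 held CCAAT and 3 held the E2F motif. These 3 were both windows of Mcm7 and that of Rrm1, so Mcm7 counts more than once. Of all windows, 3.82% held the E2F motif. Both Cdkn1a windows held none of the 3 motifs. A match describes the letters in the window and is not a binding site.

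Bub1b, a kinase of the spindle checkpoint that encodes BubR1, stood apart from the other mitotic genes by its level. On day 3 it had values of 34.0, 34.2 and 32.1 in laser libraries, against 31.6, 19.5 and 21.9 in control libraries. On day 7 it had 38.2, 50.7 and 35.3 in laser libraries, against 23.9, 34.0 and 21.5 in controls. The laser values lay above the control values on both days, by small margins over control replicate 1 on day 3 and control replicate 2 on day 7. The difference was 0.47 (SE 0.19, adjusted p 0.198) on day 3 and 0.63 (SE 0.22, unadjusted p 0.0231, adjusted p 0.989) on day 7 by limma, so neither passed. No other mitotic member averaged above 3.49 in any group, so Bub1b alone would set a sum over these genes and was left out of the sums above.

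Among the replication genes, those already abundant in control retina differed little and those near 0 in control retina differed most. Pcna, the sliding clamp of DNA polymerase, had 116, 103 and 131 in the day 3 laser libraries, against 114, 93.3 and 102 in controls. The groups overlapped, and the difference of 0.18 (SE 0.15) became -0.04 with median-of-ratios rescaling and -0.06 with quantile normalization. Mcm7 (12.5 ± 0.389 in laser and 11.9 ± 0.271 in control libraries, SD, n = 3 each), Rrm1 (11.5 ± 0.284 and 11.4 ± 1.39) and Tyms (12.5 ± 2.11 and 14.2 ± 2.60) were at like levels in both eyes, although the laser values of Mcm7 lay just above its control values. Mcm7 is a subunit of the helicase, Rrm1 the large subunit of ribonucleotide reductase, and Tyms makes thymidylate.

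Rrm2, the small subunit of ribonucleotide reductase that is abundant in dividing cells, showed the largest separation of the replication genes. Its day 3 values were 4.09, 1.01 and 1.78 in laser libraries, against 0.274, 0.0545 and 0.0745 in control libraries, from 103 and 7 reads. All 3 laser libraries lay above all controls. The ratio of summed reads relative to total reads was 15.8 (7.40 to 40.3), or 10.1 (4.56 to 26.6) without laser replicate 1. On log2(value + 1) the difference was 1.43 (SE 0.35), with an adjusted p of 0.0977 by limma. This p ran from 0.00757 to 0.301 over the alternatives. On day 7 the values were 0.154, 0.258 and 0.0700 in laser libraries and 0.204, 0.176 and 0.315 in control libraries, from 12 and 17 reads.

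The other helicase subunits lay between these extremes. Mcm6 had 4.61, 1.93 and 1.61 in day 3 laser libraries, against 0.753, 1.11 and 0.609 in controls, a difference of 0.95 (SE 0.32, adjusted p 0.146 by limma). Mcm3 had 4.46, 1.98 and 2.17 in laser libraries, against 1.62, 1.10 and 1.05 in controls, and its difference was 0.73 (SE 0.27, adjusted p 0.174 by limma). In both genes all laser libraries were above all controls, with replicate 1 highest. Without that library the difference was 0.61 for Mcm6 and 0.45 for Mcm3. Mcm2 had 2.15, 1.40 and 0.710 in laser libraries and 0.502, 0.933 and 0.682 in control libraries, which overlapped. Mcm5 lay above all controls (4.03 ± 0.542 in laser and 2.86 ± 0.701 in control libraries), and Mcm4 overlapped (11.4 ± 2.54 in laser and 8.89 ± 0.918 in control libraries, SD, n = 3 each).

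**Figure D3:**
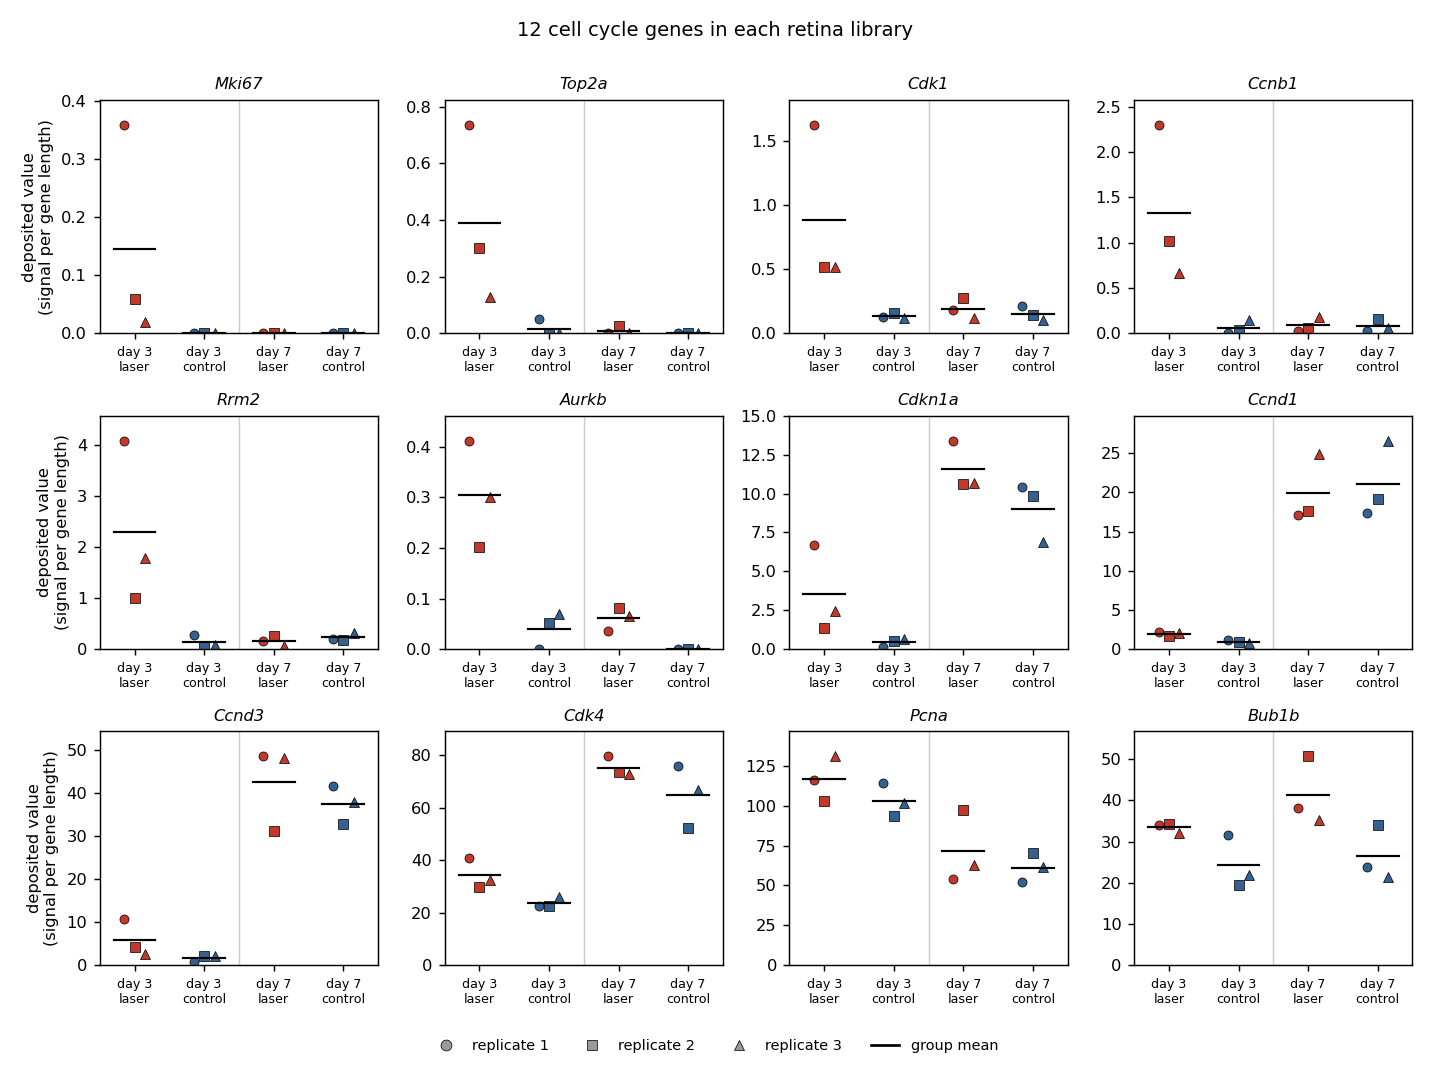
Deposited values (signal per gene length) of 12 members in each library, with day 3 on the left and day 7 on the right of each panel, laser before control, marker shapes for the replicate and bars for group means. Mki67, Top2a, Cdk1, Ccnb1 and Rrm2 are above the controls in day 3 laser libraries, with replicate 1 highest, and near 0 elsewhere, while Pcna overlaps on both days. The tables of the 2 days were normalized separately, so levels are compared within a day.

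D-type cyclins take growth signals to the cell cycle, and 3 of the 5 genes for these cyclins and their kinases lay above all controls on day 3. Ccnd1 (cyclin D1) had 2.18, 1.66 and 2.08 in laser libraries, against 1.2, 0.946 and 0.764 in controls, a difference of 0.59 (SE 0.19, adjusted p 0.139 by limma). Its 3 laser libraries were close together, and without laser replicate 1 the difference was 0.54. Ccnd3 (cyclin D3) had 10.7, 4.30 and 2.64 in laser libraries, against 0.622, 2.01 and 2.09 in controls, with a difference of 1.30 (SE 0.46, adjusted p 0.157 by limma) that was 0.83 without laser replicate 1. Ccnd2 (cyclin D2) had 4.97, 0.823 and 1.92 in laser libraries and 0.387, 1.19 and 0.746 in control libraries, so laser replicate 2 lay within the control range. Its difference was 0.86, and 0.40 without laser replicate 1.

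Cdk4, the main kinase partner of the D-type cyclins here by level, had 41, 29.7 and 32.6 in day 3 laser libraries, against 22.6, 22.5 and 25.8 in control libraries. All laser libraries were above all controls, and the difference was 0.51 (SE 0.16, adjusted p 0.132 by limma), or 0.38 without laser replicate 1. Cdk6, the other partner, had 1.06, 0.804 and 1.19 in laser libraries and 1.44, 1.17 and 1.31 in control libraries, with a difference of -0.20 (SE 0.19, adjusted p 0.576 by limma). The Cdk6 groups overlapped, with laser replicate 3 inside the control range.

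The genes for cyclin E and Cdk2 did not share 1 direction on day 3. Ccne1 (cyclin E1) averaged 1.90 ± 0.243 in day 3 laser libraries and 1.36 ± 0.125 in control libraries, with no overlap. Ccne2 (cyclin E2) averaged 5.44 ± 1.21 and 6.61 ± 1.39, and Cdk2, their kinase, averaged 0.738 ± 0.333 and 0.488 ± 0.337 (SD, n = 3 each), both with overlap.

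Of the inhibitors, Cdkn1a, which encodes p21 and is a target of p53, was higher in value in lasered retinas and its relatives were not. On day 3 Cdkn1a had 6.72, 1.39 and 2.45 in laser libraries, against 0.171, 0.562 and 0.667 in control libraries, from 196 and 30 reads. Each laser library was above each control. The ratio of summed reads relative to total reads was 7.01 (4.76 to 10.7), or 3.98 (2.58 to 6.28) without laser replicate 1. The difference was 1.46 on log2(value + 1) (SE 0.43, adjusted p 0.120 by limma, 0.0161 to 0.347 over the alternatives). Cdkn1b (p27) had 11.2, 7.17 and 7.64 in laser libraries and 7.86, 5.59 and 8.50 in control libraries. Cdkn1c (p57) had 3.05, 3.83 and 5.66 in laser libraries and 4.80, 3.13 and 5.29 in control libraries. Both overlapped, and the sign of their differences (0.21 for Cdkn1b, -0.07 for Cdkn1c) turned under some alternatives.

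Several members share exon sequence with a gene on the opposite strand. The sources used here do not say whether counting used the strand, so reads of the partners may be mixed. The shared part was 30.7% of the exon length of Cdkn1c (with Gm44732), 29.3% of Kif20a (with Cdc23), 23.4% of Ccnd1 (with LTO1), 19.7% of Cdk4 (with Tspan31), 17.4% of Ccne2 (with Ints8) and 12.5% of Ccna2 (with Exosc9). It was 7.68% or less for the other members with an opposite-strand partner. Mki67, Cdk1, Ccnb1, Rrm2, Aurkb and Bub1b shared none with such a partner.

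On day 7 no member passed either, and few differed in value. The limma test called 37 genes higher, which is 0.237% of 15592, and 1 lower, which is 0.00641%, with 0 of the 23 members tested among them. The total of 38 genes ran from 0 to 41 when 1 library was left out, with 0 without laser replicate 3 or control replicate 3. At an unadjusted p under 0.05, Bub1b was the 1 member of 23 that was higher, against 3.14% of all genes, and 0 members were lower, against 0.795%. The median difference of the tested members was 0.09, beside 0.06 for all genes. Mki67, Bub1 and Cenpf were at 0 in all 6 libraries. The 19 mitotic genes without Bub1b summed to 10.6, 15.7 and 12.2 in laser libraries and to 12.0, 14.3 and 11.3 in control libraries, which overlapped.

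Cdkn1a was the third member, after Aurkb and Bub1b, whose laser values lay above all controls on both days. On day 7 it had 13.4, 10.6 and 10.7 in laser libraries, against 10.4, 9.82 and 6.89 in control libraries, a difference of 0.34 (SE 0.22) with an adjusted p of 1.00 by limma. The margin between laser replicate 2 and control replicate 1 was small. Ccnd1 had 17.1, 17.6 and 24.9 in laser libraries and 17.4, 19.1 and 26.6 in control libraries. Ccnd3 had 48.4, 31.0 and 48.1 in laser libraries and 41.5, 32.7 and 37.8 in control libraries. For Cdk4 the laser libraries had 79.6, 73.6 and 72.9, and the control libraries 75.8, 52.2 and 66.9, and all 3 genes overlapped.

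The remaining day 7 values of the inhibitors and of the replication genes overlapped between eyes. Cdkn1b had 32.1, 59.8 and 42.7 in laser libraries and 30.1, 50.4 and 35.5 in control libraries. Cdkn1c had 26.3, 28.0 and 26.5 in laser libraries and 26.7, 22.8 and 22.9 in control libraries. Pcna had 54.2, 97.3 and 63.0 in laser libraries and 51.9, 70.1 and 61.4 in control libraries. The replicate 2 libraries were highest in both eyes for Cdkn1b and Pcna, and within each replicate number the laser value was above the control value for both. For Mcm2 the laser libraries had 11.8, 9.12 and 10.4, and the control libraries 10.6, 9.49 and 8.70. Ccnd2 (0.720 ± 0.340 in laser and 0.452 ± 0.284 in control libraries) and Cdk6 (0.302 ± 0.200 and 0.290 ± 0.154, SD, n = 3 each) were below the mean of 1 on that day. The 9 replication genes tested had differences from -0.11 (Mcm4) to 0.31 (Mcm6) on log2(value + 1).

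Same-numbered libraries of day 7 deviated together for replicates 1 and 2, with correlations of 0.485 and 0.559. For replicate 3 the correlation was 0.128, below the 0.205 of laser replicate 3 with control replicate 1, so the third pair is not borne out. Values of equal number were also set side by side with that limit, a comparison chosen after seeing the data. The laser value was higher in all 3 pairs for 8 of the 38 members above 0, or 21.1%, against 16.0% of all such genes. These were Ccnd2, Cdk4, Cdkn1a, Cdkn1b, Pcna, Mcm6, Aurkb and Bub1b. It was lower in all 3 pairs for Ccnd1 and Ccne2, or 5.26%, against 6.80% of all such genes. With the replicate number as a block no member passed, and the adjusted p by limma was 0.134 for Bub1b, 0.668 for Cdkn1a, 0.763 for Cdk4, 0.758 for Cdkn1b, 0.798 for Pcna and 0.895 for Ccnd1.

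Levels of some members differed widely between the tables of the 2 days in control retinas too. Ccnd1 averaged 0.970 ± 0.219 in control libraries on day 3 and 21 ± 4.92 on day 7, and Tyms averaged 14.2 ± 2.60 and 1.81 ± 0.556 (SD, n = 3 each). The tables were normalized separately and a day is also a set of libraries, so day and library set cannot be told apart at the level of a gene. The laser effect was therefore compared between the days only as a difference of differences.

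In that comparison, day 7 effect minus day 3 effect over all 12 libraries, 0 of 17611 genes passed the adjusted threshold of the limma test, and at an unadjusted p under 0.05 there were 1485 genes with a smaller and 169 with a larger laser effect on day 7. Of the 26 members tested, 4 had a smaller laser effect on day 7 at an unadjusted p under 0.05, against 8.43% of all genes, and 0 had a larger one, against 0.960%. They were Cdkn1a, with a difference of -1.12 (SE 0.50, adjusted p 0.519), Ccnb2 with -0.97 (SE 0.41, adjusted p 0.498), Plk1 with -0.88 (SE 0.40, adjusted p 0.526) and Ccnd1 with -0.67 (SE 0.29, adjusted p 0.513). Without laser replicate 1 of day 3 the count was 0. With voom on the recovered reads, 12 of 40 members were lower at an unadjusted p under 0.05, against 6.86% of all genes, and 0 genes passed the adjusted threshold. The 12 included Rrm2 at -4.42 (SE 1.00, adjusted p 0.504), Ccnb1 at -4.48 (SE 1.24, adjusted p 0.504) and Mki67 at -3.45 (SE 1.25, adjusted p 0.545). Mki67 had reads only in the day 3 laser libraries and entered this fit through them alone. The count of 12 is therefore read no further. Whether the laser effect on these genes differed between the days was thus not settled by the adjusted test.

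Other genes of the same pathways were followed in 4 lists of S phase, mitosis, G1 control and p53 targets, none of which overlaps the 41. On day 3, 0 genes of any of these lists passed the adjusted limma threshold. At an unadjusted p under 0.05, 4 of 20 other S phase genes tested were higher, as were 4 of 17 other mitotic genes, 3 of 15 other G1 regulators and 7 of 15 other p53 targets, and 0 were lower. Against the 20.7% of all genes at this threshold, the S phase, mitotic and G1 shares were near the background. On day 7 the counts were 0 in the first 3 lists and 1 of 14, Phlda3, among the p53 targets. The 42 other mitotic genes did not share the day 3 pattern of the members as a sum, in which abundant genes weigh most. They summed to 215, 251 and 277 in laser libraries and to 279, 285 and 332 in controls, so every laser library was lower. Gene by gene the picture was different, since laser replicate 1, with the lowest sum, was the highest day 3 library for 26 of the 42 and the lowest for 4. The median difference of the 17 tested was 0.11, from -1.27 to 1.63, beside 0.16 for all genes tested. With voom on recovered reads the median of 38 of them was 0.60, beside 0.23 for all genes in that fit. Genes could enter that fit through the laser libraries, so this median is read no further.

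The mitotic gene with the smallest p on day 3 was Pbk, a mitotic kinase, with 2.80, 1.43 and 2.47 in laser libraries, against 0, 0.0867 and 0 in controls. Its 3 laser libraries were far above the controls and close together, and the difference was 1.63 (SE 0.24, adjusted p 0.0853 by limma). Cdca3 had 3.73, 2.18 and 2.44 in laser libraries and 0.812, 1.19 and 1.19 in controls, and Cks1b, a subunit bound to cyclin-dependent kinases, had 14.0, 8.41 and 8.63 in laser libraries and 6.34, 4.39 and 4.56 in controls. Neither overlapped on day 3. Of the S phase genes, Gins2, part of the replicative helicase, had 4.43, 2.22 and 2.58 in laser libraries, against 0.888, 0.870 and 0.868 in controls, a difference of 1.08 (SE 0.24, adjusted p 0.0915 by limma). Dut, which removes dUTP, had 22.8, 24.0 and 20.1 in laser libraries and 12.7, 15.3 and 15.7 in controls, and Gins1, another part of that helicase, had 5.38, 4.59 and 4.40 in laser libraries and 3.60, 2.44 and 3.00 in controls. In all 3 the laser libraries lay above the controls. The mitotic and S phase genes named here had the smallest p of their lists, a choice that favours such separation, so they do not stand for the lists.

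Among the G1 regulators of day 3, E2f6, an E2F family repressor, had 19.2, 6.27 and 8.88 in laser libraries, against 2.41, 2.22 and 2.96 in controls. Its difference was 1.69 (SE 0.36, adjusted p 0.0915 by limma), and it passed without laser replicate 1, with a difference of 1.27 and an adjusted p of 0.0345. Myc, a growth-promoting transcription factor, had 4.17, 1.14 and 1.23 in laser libraries and 0.279, 0.50 and 0.532 in controls, and Rb1, the retinoblastoma gene, had 4.51, 2.62 and 3.14 in laser libraries and 1.87, 1.71 and 1.87 in controls, both without overlap. Among the p53 targets, Bax, which drives apoptosis, had 63.6, 39.9 and 30.1 in laser libraries, against 14.1, 20.9 and 21.1 in controls. Fas, a death receptor, had 76.5, 8.70 and 12.1 in laser libraries and 1.60, 1.93 and 2.06 in controls, and passed without laser replicate 1, with a difference of 1.98 and an adjusted p of 0.00668. Ccng1 (cyclin G1) had 40.6, 24.2 and 18.9 in laser libraries, against 11.2, 11.8 and 13.9 in controls. All 3 p53 targets were without overlap. The G1 regulators and p53 targets named here were picked for the smallest p of their lists. That choice favours groups without overlap, so the separation does not speak for the lists.

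On day 7 these lists were close between eyes. Phlda3, a p53 target that limits Akt signalling, had 36.7, 34.2 and 38.7 in laser libraries, against 31.4, 21.3 and 20.2 in controls, with a difference of 0.59 (SE 0.19, adjusted p 0.891 by limma). E2f1, the activating E2F, had 4.67, 3.74 and 4.49 in laser libraries and 3.72, 3.02 and 2.69 in controls. The other genes with the smallest p on day 7 were Rfc3, Gmnn, Chaf1a, Cks1b, Cdc25c, Tacc3, E2f6, Cdc25a, Gadd45a and Zmat3, with differences from -0.31 (Chaf1a) to 0.38 (E2f6). Each had an adjusted p of 1.00 by limma.

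Sums of markers of several cell types were higher in laser libraries on day 3, though genes within a list could go opposite ways. Microglia markers (13 genes) summed to 262, 161 and 176 in laser libraries and to 47.7, 56.2 and 51.7 in control libraries. Monocyte and macrophage markers (12 genes) summed to 891, 70.0 and 117 in laser libraries and to 10.5, 13.7 and 12.5 in control libraries. Laser replicate 1, highest for most members, was highest for 12 of these 12 genes and for 6 of the 8 neutrophil genes. In that library 6 of the 8 neutrophil genes were above 0, led by S100a9 at 524 and S100a8 at 476, and Mpo and Elane were listed at 0. Astrocyte markers (6 genes) summed to 504, 170 and 193 in laser libraries and to 46.7, 59.2 and 60.1 in control libraries. Pericyte and smooth muscle markers (8 genes) summed to 52.7, 11.6 and 13.2 in laser libraries and to 12.7, 10.6 and 9.54 in controls, and lymphocyte markers (9 genes) to 10.5, 1.11 and 1.35 in laser libraries and to 1.25, 0.670 and 0.858 in controls. Endothelial markers (10 genes) summed to 52.5, 37.1 and 28.6 in laser libraries and to 24.3, 25.1 and 25.0 in controls, and Müller glia markers (12 genes) to 2241, 2150 and 2049 in laser libraries and to 1537, 1734 and 1538 in controls. Single genes tested differed by -0.92 to 2.94 on log2(value + 1) in the Müller glia list and by -0.32 to 4.45 in the astrocyte list. Laser replicate 1 was the highest library for 6 and the lowest for 5 of the 12 Müller glia genes. Markers of pigment epithelium and melanocytes (10 genes) summed to 63.5, 227 and 739 in laser libraries and to 372, 591 and 508 in controls. The part of these cells in the values of the cell cycle genes was not tested.

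On day 7, microglia markers summed to 408, 411 and 492 in laser libraries, against 147, 144 and 129 in control libraries. Monocyte and macrophage markers summed to 138, 123 and 98.4 in laser libraries and to 14.4, 17.6 and 12.3 in controls. In the monocyte and macrophage list Ccr2 was at 0 in 2 of the 3 laser libraries and in all 3 control libraries of that day. Neutrophil markers summed to at most 1.27 in any day 7 library, and Ly6g, Elane and Cxcr2 were at 0 in at least 5 of the 6. Astrocyte markers summed to 237, 216 and 222 in laser libraries and to 90.2, 94.3 and 81.0 in controls. The Müller glia sums were 5982, 7231 and 7050 against 5677, 5479 and 5570. Rod markers were lower in every laser library, at 58823, 46693 and 53910 against 67354, 61661 and 66649. Endothelial, pericyte and pigment epithelium sums overlapped between the eyes.

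**Figure D4:**
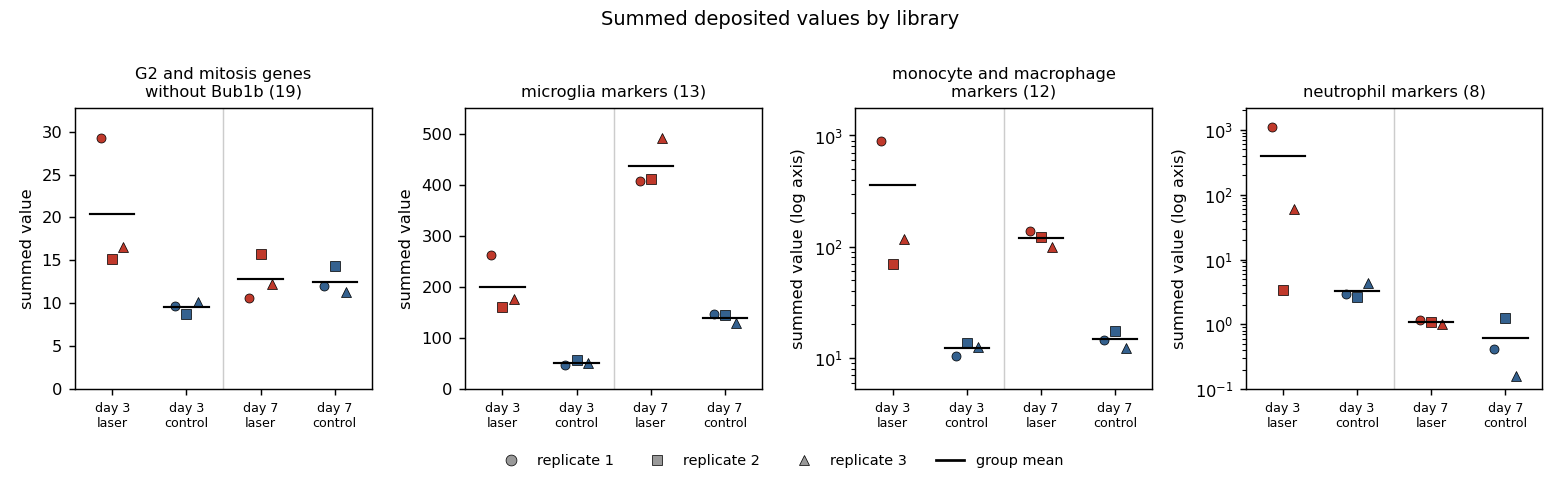
Summed deposited values by library for the 19 genes of G2 and mitosis without Bub1b and for markers of microglia, of monocytes and macrophages and of neutrophils, laser before control within each day, with group means as bars. The last 2 panels have log axes. On day 3 the mitotic sum was 29.3, 15.2 and 16.6 in laser libraries, against 8.77 to 10.2 in controls, and on day 7 it overlapped. Microglia markers on day 7 summed to 408 to 492 in laser libraries, against 129 to 147 in controls.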

How the data were processed

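Poly(A) RNA of 12 retina libraries was sequenced. The deposited tables, 1 per day, hold a signal per gene and library that the authors name TPM. Column sums of 953049 to 1045986 are not those of TPM, so the values were treated as signal scaled by gene length. STAR 2.7.0, edgeR 3.28.0 and mm10 stand in the submitters' processing notes without a role, and the annotation release and use of strand in counting are not known from the labels.

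Within each day, laser and control libraries were compared with limma 3.58.1 (R 4.3.3) on log2(value + 1). Genes entered where the day's 6 libraries averaged 1 or more, with Benjamini-Hochberg adjustment over all genes tested. Change in the laser effect between days was tested in 1 fit over the 12 libraries. Tables were handled in Python 3.11.15 with pandas 2.3.3 and NumPy 2.4.6, and plotted with matplotlib 3.10.9. Whole reads were recovered for 53681 genes from the steps of the values, and 99.8% of values under 20 reads were whole within 0.05. Read ratios have exact 95% intervals.

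The members and lists were chosen with earlier results of these data known. Genes described in full were the members that did not overlap on both days, a set list of members by role, and, per pathway list and day, the 3 genes with the smallest p. The members described beyond these were chosen after their values were seen. Tests were tried on simulated data. Alternatives were other scalings, pseudocounts, no filter, library weights, a joint fit, a replicate block and leaving out each library. The deposited values carried a small factor that cycled along the rows within each library, from 0.955 to 1.04 on day 3 and from 0.962 to 1.05 on day 7. Undoing this factor, voom on recovered reads and voom without laser replicate 1 of day 3 were added after seeing the data. Equal replicate numbers are not said to mark 1 mouse. Deviations of same-numbered libraries correlated at 0.0413, 0.0162 and 0.0766 on day 3 and at 0.485, 0.559 and 0.128 on day 7, so the numbers were taken as pairs on day 7 only. Laser replicate 3 of day 7 correlated more with control replicate 1, at 0.205, than with control replicate 3. The third pair is thus not borne out by the values.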

Additional observations from a re-analysis of the deposited data

How the results depend on the processing

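No member passed the adjusted threshold on either day in the reported fits, and the exceptions on day 3 were 2 members, Rrm2 and Cdkn1a, in the joint fit and 5 in voom without laser replicate 1. Rrm2 and Cdkn1a passed the filter of the joint fit only through the laser libraries, and Ccnb1, Rrm2 and Top2a entered voom mainly through them. The cause of these exceptions was not tested. The day 3 count of 25 genes became 1139 in the joint fit, 369 with library weights, 14 with median-of-ratios rescaling, 0 without a filter, 12 with quantile normalization, 1221 in voom without laser replicate 1, and 0 to 294 leaving out 1 library. It was 0 without any 1 of the control libraries. The 9 day 3 members at an unadjusted p under 0.05 became 16 of 41 without a filter (39.0%, against 13.4% of all genes), 4 of 26 with quantile normalization (15.4%, against 20.7%), 21 of 40 with voom (52.5%, against 20.7%), 17 of 38 with voom without laser replicate 1 (44.7%, against 18.5%), and 5 to 10 leaving out 1 library, where the 5 of 24 without laser replicate 1 were 20.8%, against 18%. These shares count both directions, and in the reported fit they were 34.6% of members and 23.0% of all genes. Without a filter and with voom, members near 0 in control retinas could enter through the laser libraries, so those counts are read no further. The same limit holds for the members of the reported fit that passed its filter only through the laser libraries. The day 7 count of 38 genes became 25 in the joint fit, 114 with library weights, 24 with median-of-ratios rescaling, 13 without a filter, 14 with voom, and 0 to 41 leaving out 1 library. The 1 day 7 member became 3 of 23 with library weights (against 10.4% of all genes) and 0 to 1 leaving out 1 library. For the change between days, the count of 0 genes became 1119 with library weights, 28 without a filter, 2 with a pseudocount of 0.1, and 0 to 3 leaving out 1 library. Its 4 members became 2 of 25 with median-of-ratios rescaling (against 7.11% of all genes), 10 of 41 without a filter (against 6.83%), 12 of 40 with voom (against 7.86%), and 0 to 4 leaving out 1 library. As on day 3, the member counts without a filter and with voom are read no further. The fit with library weights did not fully converge.

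With the replicate block, 0 genes passed on day 3 and 53 on day 7, 2 of 26 members had an unadjusted p under 0.05 for the change between days (against 12.0% of all genes), and the count of members past the adjusted threshold was 0 on both days.

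Signs turned for small differences. On day 3, Pcna was -0.04 with median-of-ratios rescaling and -0.06 with quantile normalization, Cdkn1b was -0.04 with quantile normalization, and Cdkn1c was 0.01 with library weights, 0.06 with voom without laser replicate 1 and -0.27 to 0.09 leaving out 1 library. On day 7, Pcna was -0.05 with library weights and -0.05 to 0.36 leaving out 1 library, Mcm2 was -0.01 with quantile normalization, Cdk6 was -0.05 with voom, Cdkn1b was -0.01 with library weights and -0.03 to 0.41 leaving out 1 library, Tacc3 was -0.18 with library weights, and Ccnd1 was -0.24 to 0.10 leaving out 1 library. For the change between days, Bub1b was -0.03 to 0.35 leaving out 1 library.

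Depth limited the mitotic genes most. Mki67, Top2a and Aurkb rested on 23, 57 and 15 laser reads on day 3, and their intervals cover counting error only, not the spread between retinas.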
